A study of Mus musculus with 9 samples.

Results

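Errfi1 encodes Mig6, a cytoplasmic inhibitor of the epidermal growth factor (EGF) receptor. It was examined together with the EGF receptor gene Egfr, its relatives Erbb2 and Erbb3, and the receptor brakes Lrig1, Cbl and Cblb. The members were all probe sets of a mouse Affymetrix expression array that the platform annotation maps to exactly 1 of these 7 symbols, a probe set being a group of probes read out as 1 value. Of 18193 genes named on the array, the 7 members had 21 such probe sets among 45101, 7 for Egfr, 3 each for Cbl, Cblb and Lrig1, 2 each for Errfi1 and Erbb3 and 1 for Erbb2. The probe sets of a gene are numbered below in falling order of their mean over all arrays.

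RNA came from serum-starved NIH 3T3 cells, an established mouse fibroblast line, on 9 arrays in 3 groups of 3 cultures. All groups, controls included, received the translation blocker cycloheximide at 3 µg/ml for 2 h. The second group was also given cytochalasin D at 2 µM for 90 min and is called the cytochalasin D group. The third was given latrunculin B at 5 µM and cytochalasin D at 2 µM for 90 min and is called the double-drug group; its titles name latrunculin B alone, and its agent label, which was followed, names both drugs. Cultures carry the replicate numbers 1, 3 and 7 in each group, and the series design calls the replicates independent. The arrays measured transcripts, and neither protein nor receptor activity was measured here.

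The EGF receptor and its relatives bind ligands of the EGF family, pair up, and phosphorylate each other, which starts signalling through the Ras-ERK pathway. Several brakes act on the receptor itself. Mig6 binds the kinase domain, blocks it and promotes receptor uptake, the ubiquitin ligases Cbl and Cbl-b mark the active receptor for degradation, and the membrane protein LRIG1 lowers receptor levels. The drugs used here have actin as their target. Cytochalasin D, which caps filaments, releases the coactivator MRTF from monomeric actin, whereas latrunculin B binds monomers and leaves MRTF bound to them. MRTF acts on genes through serum response factor, which recognises a sequence called the CArG box. The series asks which genes follow this switch, and the study group followed up Errfi1, so its values here are not independent evidence of its response.

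The RefSeq promoter table (build GRCm38.p6) held windows for 6 of the 7 genes, and Errfi1 had 2 transcript starts. The 250 bases upstream of both are shown because Errfi1 was the member whose transcripts moved. The first lies at chr4:150853546-150853795 and the second at chr4:150854820-150855069, both on the plus strand. Capitals mark matches to the motifs searched.
Errfi1 upstream of start 1: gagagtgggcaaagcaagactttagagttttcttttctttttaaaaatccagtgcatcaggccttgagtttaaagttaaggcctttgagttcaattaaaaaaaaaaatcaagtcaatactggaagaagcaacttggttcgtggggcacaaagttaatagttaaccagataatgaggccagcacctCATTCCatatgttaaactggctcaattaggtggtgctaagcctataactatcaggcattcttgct
Errfi1 upstream of start 2: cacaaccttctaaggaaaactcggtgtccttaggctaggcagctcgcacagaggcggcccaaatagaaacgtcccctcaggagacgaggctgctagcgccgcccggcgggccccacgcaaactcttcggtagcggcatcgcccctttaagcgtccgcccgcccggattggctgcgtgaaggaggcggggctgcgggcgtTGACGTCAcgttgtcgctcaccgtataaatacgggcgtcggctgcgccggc

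Motifs were searched on both strands: the CArG box by its strict form, the cAMP response element TGACGTCA, the AP-1 site TGANTCA and the TEAD site CATTCC. They were chosen with these windows in view. The upstream window of start 1 held 1 CATTCC, that of start 2 held 1 TGACGTCA, and neither held another match. Of all 32851 windows of this length in the table, 12.6% held CATTCC, 1.55% TGACGTCA, 6.75% TGANTCA and 1.47% the CArG box. The windows of Erbb2 and Cbl each held 1 CATTCC, and those of Egfr, Lrig1 and Cblb held no match. A match is a description of these letters, and the absence of one says nothing about sites outside the windows. The windows also differed in base composition, with 38% G or C upstream of start 1 and 64.8% upstream of start 2.

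Deposited values are intensities normalized by the authors on a linear scale, with a median per array between 7.57 and 7.84. Differences are given as differences in log2(intensity + 16), which understates those of dim probe sets. A probe set was tested when it exceeded the 40th percentile of its array on at least 3 arrays, and 14 of the 21 member probe sets and 27010 in all did so. The fibroblast label was checked against markers: 13 of 14 fibroblast markers had a mean above 100, Lum being the exception at 5.08. Of 10 epithelial markers 9 had a mean below 20, with Cdh1 at 8.79 and Epcam at 13.1, and of 7 endothelial markers 6 did. The exceptions were Krt14 at 125 (epithelial) and Egfl7 at 49.5 (endothelial). Of 9 macrophage and leukocyte markers 6 had a mean below 20, Ptprc at 5.10 among them, whereas Cd14 had 174, Lyz2 124 and Csf1r 42.1. The summed intensity of that last list ran from 381 to 453 in controls, 292 to 394 with cytochalasin D and 343 to 399 in the double-drug group. The part of that list in the results was not tested. Only 13 fibroblast, 4 epithelial, 5 macrophage and leukocyte and 1 endothelial markers passed the filter, and of these 0 were called in any contrast. The share of all probe sets called was 1.57% for cytochalasin D against control, 0.111% for the double-drug group against control and 0.259% between the drug groups. The 3 cultures numbered 1 lay apart from the others on the first principal component, so values without them are given.

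Errfi1 transcripts rose with cytochalasin D and lay at an intermediate level when latrunculin B was present as well. Probe set 1 (1416129_at) had intensities of 1682, 2211 and 2125 in control replicates 1, 3 and 7. With cytochalasin D the values were 8249, 10342 and 11630, and in the double-drug group 3759, 5302 and 4938. The 3 groups did not overlap: every double-drug culture lay above every control and below every culture given cytochalasin D alone. Probe set 2 (1419816_s_at) had 1067, 939 and 814 in controls, 5962, 7686 and 6916 with cytochalasin D, and 2708, 2768 and 2149 in the double-drug group. The order of the groups was the same, again without overlap. Over the 9 arrays the profiles of both probe sets had a Pearson correlation of 0.97. The suffix of probe set 2 marks probes that can bind more than 1 transcript, and binding to other transcripts was not tested.

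**Figure D1:**
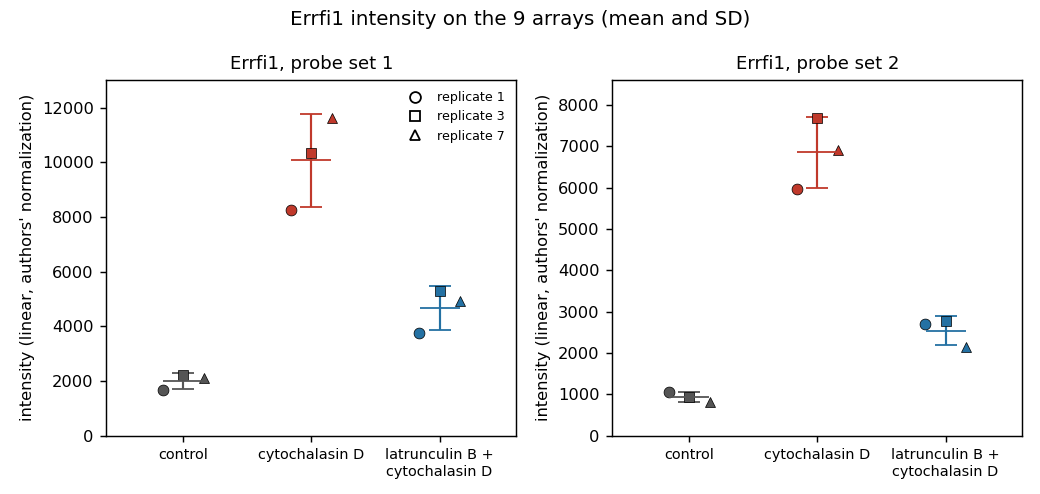
Intensity of the 2 Errfi1 probe sets (linear y axis from 0) in the 3 groups on the x axis; symbols are single arrays by replicate number, and bars are means with SD over 3 arrays. In both panels the double-drug cultures lie between the controls and the cultures given cytochalasin D alone, with no overlap.

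The first comparison asks what cytochalasin D changed against control. Errfi1 probe set 1 went from 2006 ± 284 to 10074 ± 1707 (SD, n = 3), which is 5.02-fold between the means. Its log2 difference was 2.31 (SE 0.19, adjusted p = 0.00261), the 35th largest among 27010 probe sets. For probe set 2 the means were 940 ± 126 and 6855 ± 864 (SD, n = 3), a 7.29-fold difference and a log2 difference of 2.85 (SE 0.15, adjusted p = 0.000923), the 10th largest. The 95% intervals, 1.87 to 2.76 for probe set 1 and 2.50 to 3.20 for probe set 2, share part of their range. Both calls held without any single array and without the 3 cultures numbered 1. In bulk RNA, a change in the number of expressing cells and one in RNA per cell cannot be told apart.

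No other member was called in this comparison. Of the 14 member probe sets tested, 2 rose, 0 fell and 12 were not called, against 1.57% of all probe sets called. Group values did not overlap for 4 of the 14, 2 higher (Errfi1) and 2 lower, where 11.5% of all probe sets were parted in this way. The 12 probe sets of the other 6 genes had log2 differences from −0.51 to 0.18 with a median of 0.04, and the median over all probe sets was −0.00098. Their smallest adjusted p was 0.384, and 0.0764 with the replicate number as a block.

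Among the receptors, the EGF receptor itself showed no detectable difference. Egfr probe set 1 had 77.9, 106 and 95.9 in controls, 109, 91.1 and 94.9 with cytochalasin D, and 99.1, 94.9 and 82.2 in the double-drug group. The groups overlapped, and the log2 difference between cytochalasin D and control was 0.07 with a 95% interval from −0.20 to 0.34. Probe sets 2 and 3, with means of 53.6 and 53.4 over all arrays, gave 0.07 (interval −0.14 to 0.27) and 0.01 (−0.30 to 0.32). Egfr probe set 4 was dim, between 8.42 and 22.7, and its difference was 0.15 (interval −0.29 to 0.59). The other 3 Egfr probe sets stayed between 3.57 and 4.82 on every array and were not tested.

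Erbb2 encodes the relative of the EGF receptor that has no known ligand of its own and serves as its partner. Its single probe set had 122, 111 and 124 in controls and 107, 78.5 and 101 with cytochalasin D. All 3 drug values lay below the controls, as did those of 6.45% of all probe sets. The log2 difference was −0.28 (95% interval −0.53 to −0.04), and it did not pass the test (adjusted p = 0.384). With the replicate number as a block its adjusted p was 0.0872. In the double-drug group the values were 108, 101 and 115, which overlap both other groups. Erbb3 encodes a relative with a weak kinase that signals through its partners. Its probe set 1 was dim in every group, at 13.4, 12.7 and 19.8 in controls, 13.6, 10.1 and 21.1 with cytochalasin D and 13.4, 11.1 and 26.7 in the double-drug group. In each group the culture numbered 7 had the highest value, and the groups overlapped. The other Erbb3 probe set stayed between 4.23 and 4.39 and was not tested.

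Among the brakes, Lrig1 had lower means with cytochalasin D without passing the test. Probe set 1 had 320, 431 and 375 in controls, 237, 265 and 310 with cytochalasin D and 236, 320 and 344 in the double-drug group. The cytochalasin D values lay below all controls, with a log2 difference of −0.45 (SE 0.17, 95% interval −0.85 to −0.04, adjusted p = 0.43). With the replicate number as a block the adjusted p was 0.0764. Probe set 2 had 215, 415 and 345 in controls and 160, 228 and 274 with cytochalasin D. These groups overlapped, and the difference of −0.51 had a wide interval, from −1.24 to 0.22 (adjusted p = 0.723). Within numbers 1, 3 and 7 the ratio to control was 0.74, 0.55 and 0.79 for probe set 2. With the block its SE was 0.12 and its adjusted p 0.109. Its double-drug values were 203, 278 and 347, and in all 3 groups the culture numbered 1 was the lowest for both Lrig1 probe sets. The third Lrig1 probe set stayed between 5.46 and 5.54 and was not tested.

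The ubiquitin ligase genes showed no detectable difference. Cbl probe set 1 had 150, 192 and 158 in controls, 197, 121 and 218 with cytochalasin D and 157, 164 and 216 in the double-drug group. Its values with cytochalasin D lay on both sides of the controls, and the log2 difference was 0.06 (95% interval −0.46 to 0.59). Cbl probe set 2 averaged 135 ± 15.5 in controls and 156 ± 33.3 in the cytochalasin D group (SD, n = 3), and its log2 difference was 0.18 (interval −0.27 to 0.63). Cblb probe set 1 had 120, 114 and 114 in controls, 122, 84.1 and 142 with cytochalasin D and 135, 122 and 135 in the double-drug group. Here too the cytochalasin D values spread around the controls (difference −0.02, interval −0.39 to 0.34), while the double-drug values lay just above them. Cblb probe set 2, between 13.7 and 29.8, gave 0.08 (interval −0.33 to 0.48). The third probe sets of Cbl and Cblb were not tested; that of Cblb stayed between 5.21 and 5.33, and that of Cbl reached 11.1 in control replicate 1 and 19.9 in cytochalasin D replicate 1 and was at most 5.76 on the other arrays.

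**Figure D2:**
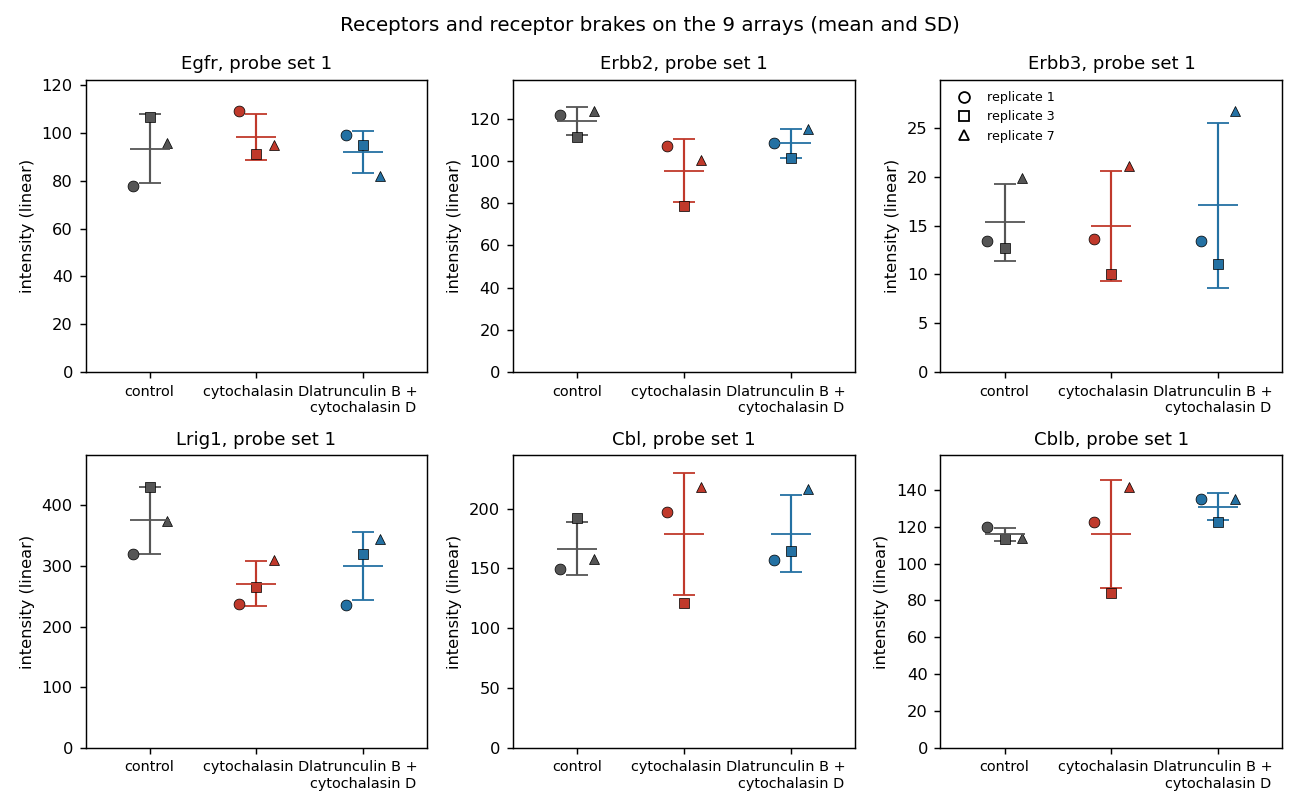
Intensity (linear y axes from 0) of the leading probe set of Egfr, Erbb2, Erbb3, Lrig1, Cbl and Cblb in the 3 groups on the x axis; symbols are single arrays by replicate number, and bars are means with SD over 3 arrays. Cytochalasin D values lie below all controls for Erbb2 and Lrig1 and overlap the controls for the other 4 genes.

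The second comparison asks what remained of these differences against control when latrunculin B was given with cytochalasin D. Errfi1 probe set 2 went to 2542 ± 342 (SD, n = 3), 2.70-fold above control, with a log2 difference of 1.42 (SE 0.15, adjusted p = 0.0393). This call rested on the full set of arrays, because it ended without any 1 of the 9, with adjusted p between 0.0513 and 0.176, and without the 3 cultures numbered 1 (0.198). Probe set 1 went to 4666 ± 807 (SD, n = 3), 2.33-fold, with a log2 difference of 1.21 (95% interval 0.77 to 1.65) that did not pass the test (adjusted p = 0.112). In this comparison cultures with the same number deviated together, and with the replicate number as a block probe set 1 was called (adjusted p = 0.0106), as was probe set 2 (0.0443). Within numbers 1, 3 and 7 the ratio to control was 2.23, 2.40 and 2.32 for probe set 1 and 2.54, 2.95 and 2.64 for probe set 2.

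Of the 14 member probe sets 1 rose, 0 fell and 13 were not called, against 0.111% of all probe sets called. With the block 2 were called, both of Errfi1, against 0.455% of all. The 12 probe sets of the other genes had log2 differences between −0.31 (Lrig1 probe set 1) and 0.16 (Cblb probe set 1), with a median of −0.07 beside 0.0032 over all probe sets. For Cblb probe set 1 the double-drug values did not overlap the controls, as for 8.08% of all probe sets, and its 95% interval ran from −0.21 to 0.52. Erbb2 had a difference of −0.12 (interval −0.36 to 0.12), Egfr probe set 1 one of −0.01 (−0.28 to 0.26) and Cbl probe set 1 one of 0.09 (−0.44 to 0.62).

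The third comparison sets cytochalasin D alone against the double-drug group and so tests the effect of adding latrunculin B. It shares its arrays with both other comparisons. Errfi1 probe set 2 was 2.70-fold higher with cytochalasin D alone, a log2 difference of 1.43 (SE 0.15, adjusted p = 0.031). This call ended without control replicate 3, without cytochalasin D replicate 3 or 7, or without any double-drug array (adjusted p between 0.0881 and 0.136), and without the 3 cultures numbered 1 (0.187). Probe set 1 was 2.16-fold higher, with a log2 difference of 1.11 (95% interval 0.67 to 1.55) that did not pass the test (adjusted p = 0.136). Here the replicate numbers paired the cultures as well, and with them as a block probe set 1 was called (adjusted p = 0.0175), as was probe set 2 (0.0454). Within numbers 1, 3 and 7 the ratio was 2.19, 1.95 and 2.36 for probe set 1 and 2.20, 2.78 and 3.22 for probe set 2.

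Of the 14 member probe sets 1 was higher with cytochalasin D alone, 0 were lower and 13 were not called, against 0.259% of all probe sets, and with the block 2 were called against 0.367% of all. The differences of the other 12 ran from −0.30 (Lrig1 probe set 2) to 0.30 (Egfr probe set 4), and for none of them were the groups parted, as they were for 6.26% of all probe sets. Lrig1 probe set 1 had a difference of −0.13 (95% interval −0.54 to 0.28) and Erbb2 one of −0.17 (−0.41 to 0.08).

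**Figure D3:**
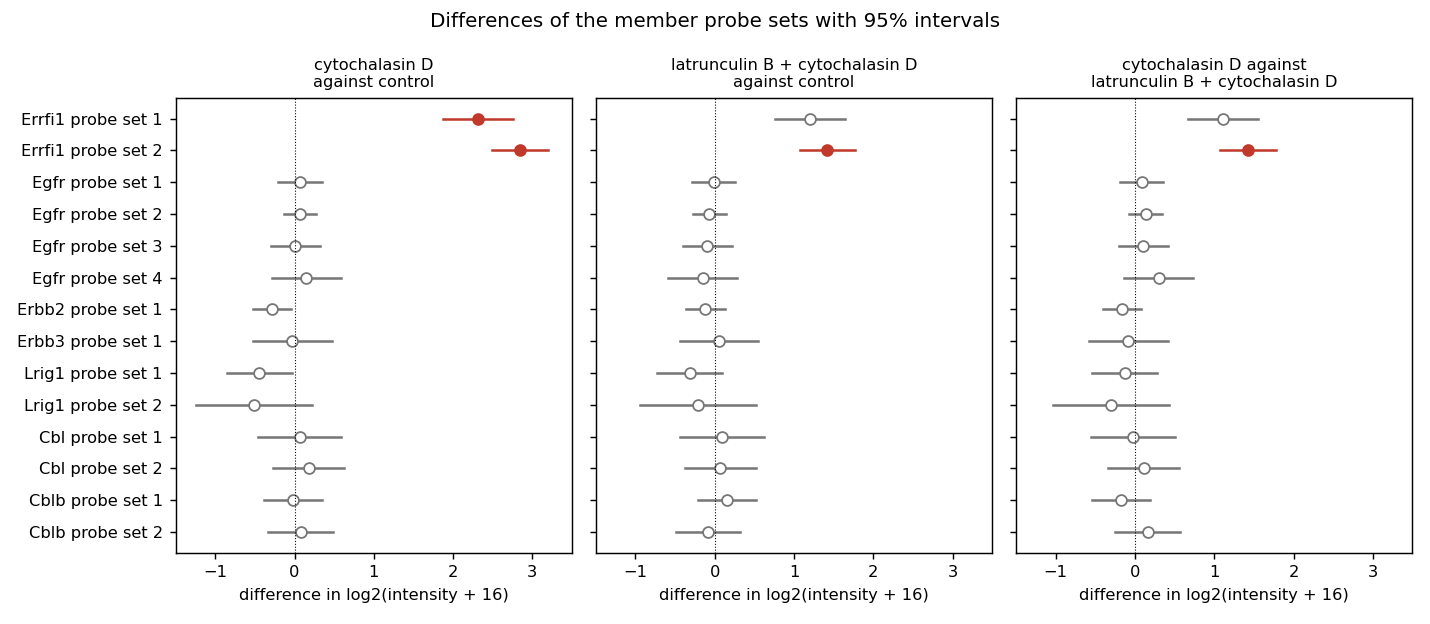
Differences in log2(intensity + 16) (x axis) for the 14 tested member probe sets (y axis) in the 3 comparisons, with 95% intervals; filled red points have an adjusted p under 0.05 and open grey points do not. Both Errfi1 probe sets stand to the right of 0 in all 3 panels, and the other 12 points lie between −0.51 and 0.30.

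Other genes of the EGF receptor pathway were taken from 3 lists and counted by their brightest tested probe set. The shares of all probe sets given beside these counts also take in the dimmer probe sets of a gene, an unlike set. The proximal signalling list, adaptors and kinases that carry the signal from the receptor to Ras, ERK and PI3 kinase, had 23 of 28 genes tested and 0 called in each comparison. Erbb4 in this list was dim, with a control mean of 9.72, so that any difference of it is understated. With cytochalasin D 4 of the 23 were at an unadjusted p under 0.05 in limma, as were 10.2% of all probe sets. The median log2 difference of the 23 with cytochalasin D was 0.04, beside −0.00098 over all probe sets. The 4 genes with the smallest adjusted p were Stat3, a transcription factor activated by the receptor, Sos2, an activator of Ras, the kinase Src, and Pik3r1, a regulatory subunit of PI3 kinase. Stat3 averaged 888 ± 264 in the control cultures against 1479 ± 55.0 under the drug (SD, n = 3), with a difference of 0.76 (adjusted p = 0.186). Its values were 1194, 739 and 732 in controls and 1516, 1505 and 1416 with cytochalasin D, without overlap. Sos2 had a difference of 0.75 (adjusted p = 0.374), Src one of 0.31 and Pik3r1 one of −0.28. With the replicate block Sos2 was called (adjusted p = 0.0278), the 1 gene of this list that was.

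In the other comparisons 0 of the 23 were at an unadjusted p under 0.05 in limma, beside 5.28% of all probe sets in the double-drug group against control and 4.22% between the drug groups. Against control the double-drug group had differences of 0.38 for Stat3, 0.20 for the kinase Braf, 0.09 for the adaptor Crk and 0.13 for the phosphatase Ptpn11, each with adjusted p = 1.0. Cytochalasin D alone against the double-drug group gave 0.38 for Stat3, 0.42 for Sos2, 0.20 for Src and −0.20 for Rasa1, which switches Ras off, again with adjusted p = 1.0. The list medians were 0.06 and −0.0012.

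Of the further brakes and endocytosis genes, 35 of 37 were tested, and Socs5 was the gene called. SOCS5 promotes degradation of the EGF receptor. Its values were 1450, 1427 and 1328 in controls, 963, 960 and 920 with cytochalasin D, and 1188, 1188 and 1214 in the double-drug group. The groups did not overlap, and the double-drug cultures lay between the other two. Socs5 fell by 0.56 on the log2 scale with cytochalasin D (SE 0.04, adjusted p = 0.00138), the reverse direction of Errfi1, and this call held without any single array. Against the double-drug group it was lower by a log2 difference of −0.33 (adjusted p = 0.0336). That second call ended without control replicate 3, any cytochalasin D array or any double-drug array (adjusted p between 0.085 and 0.158) and without the 3 cultures numbered 1 (0.23). The double-drug group against control had −0.22 (adjusted p = 0.131). Only 1 of the 2 Socs5 probe sets was called in either comparison.

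The other 34 brakes were not called with cytochalasin D, where 1.57% of all probe sets were called, and the list median was 0.02. Ptprj among them was dim, with a control mean of 8.27, so that any difference of it is understated. At an unadjusted p under 0.05 in limma were 7 of the 35, beside 10.2% of all probe sets. Group values did not overlap for 5 lower and 1 higher, beside 11.5% of all. With the replicate block Spry1 and Socs3 (lower) and Tnk2 (higher) were called as well. Between the drug groups, where 0.259% of all were called, 5 of the 35 had an unadjusted p under 0.05, beside 4.22%. The lowest difference of the list with cytochalasin D against control, singled out after its values were seen, was that of Socs3, at −1.12. It had SE 0.35 and adjusted p = 0.29, and 0.0127 with the replicate block. Without the block 0 of the 3 tested Socs3 probe sets were called, and only the brightest is given here. SOCS3 is a feedback inhibitor of cytokine receptor signalling. Socs3 had 1205, 1548 and 2530 in controls, 563, 701 and 1119 with cytochalasin D and 1208, 1230 and 1733 in the double-drug group, and all cytochalasin D values lay below the others. Against control in the double-drug group, 0 of 35 were called in limma and 3 were at an unadjusted p under 0.05 (5.28% of all probe sets). After Socs5 the smallest adjusted p belonged to Spry1, a Sprouty inhibitor of Ras-ERK signalling, at −0.76 (adjusted p = 0.653), Stam, an endosomal sorting protein, at 0.19, and Eps15l1, a clathrin adaptor, at −0.25. Spry1 had 665, 678 and 528 in controls, 319, 390 and 261 with cytochalasin D and 333, 500 and 275 in the double-drug group, so that both drug groups lay below the controls.

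Of the ligand and shedding genes, 9 of 15 were tested, and Ereg, which encodes the EGF receptor ligand epiregulin, rose with cytochalasin D. Its values were 348, 301 and 294 in controls, 1144, 863 and 1129 with cytochalasin D, and 595, 407 and 459 in the double-drug group. As for Errfi1, the 3 groups did not overlap and the double-drug group lay in the middle. The log2 difference with cytochalasin D was 1.68 (SE 0.17, adjusted p = 0.0053), held without any single array, and had adjusted p = 0.0517 without the 3 cultures numbered 1. Against the double-drug group it was 1.08 (adjusted p = 0.0981, and 0.0413 with the replicate block). In the double-drug group against control it was 0.59 (adjusted p = 0.533).

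The remaining 8 ligand and shedding genes were not called with cytochalasin D, where 1.57% of all probe sets were called. There 2 of the 9 were at an unadjusted p under 0.05 in limma, beside 10.2% of all probe sets. Nrg2, Btc, Egf and Nrg1 were dim, with control means of 7.07, 8.81, 14.4 and 21.9, so that any differences of theirs are understated. In the other comparisons 0 of 9 were called (limma, with 1 and 2 at an unadjusted p under 0.05, beside 5.28% and 4.22% of all probe sets). The list medians there were 0.02 and −0.01, and the list median with cytochalasin D was 0.01. Hbegf, the heparin-binding ligand of the receptor, had 459, 302 and 290 in controls, 850, 669 and 700 with cytochalasin D and 493, 363 and 418 in the double-drug group. The cytochalasin D values lay above all others, and the double-drug values overlapped the controls. The log2 difference with cytochalasin D against control was 1.07 (SE 0.20, adjusted p = 0.0618, and 0.00796 with the replicate block). Between the drug groups it was 0.78 (adjusted p = 0.489, and 0.0596 with the block). Without the block 0 of the 2 tested Hbegf probe sets were called in either comparison, and only the brightest is given here. Adam17, the protease that sheds several of these ligands, had 0.21 in the double-drug group against control, and Rhbdf1, which helps Adam17 mature, had −0.20. Between the drug groups Adam17 had −0.14 and the ligand gene Egf, dim at 14.9 with cytochalasin D, had 0.02.

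**Figure D4:**
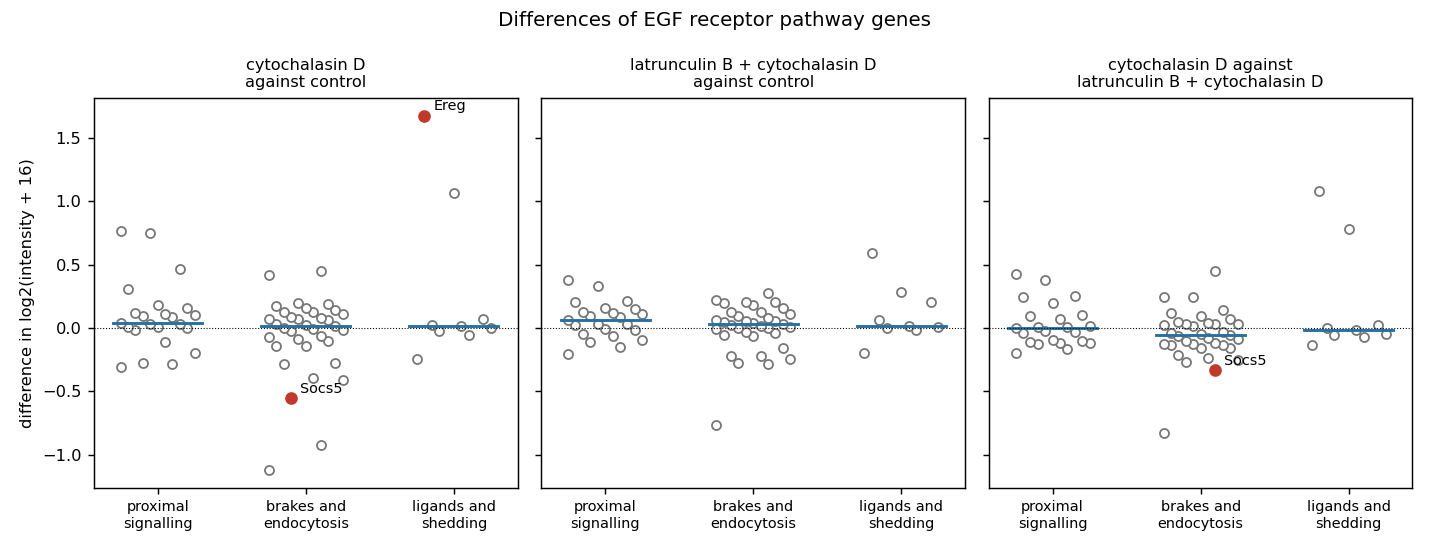
Differences in log2(intensity + 16) (y axis) of the 23, 35 and 9 tested genes of the 3 pathway lists (x axis) in the 3 comparisons; each point is a gene, filled red where the adjusted p was under 0.05, and blue lines are list medians. Ereg at 1.68 and Socs5 at −0.56 are the called genes in the first panel, and Socs5 at −0.33 in the third.

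The genes whose profile over the 9 arrays was most like that of Errfi1 probe set 1 were ranked by Pearson correlation of log2(intensity + 16) among 12644 genes. The 10 highest were Traf5, Dnajb4, Fam126b, Prepl, Prkab2, Tgfb1i1, Mob3a, Lima1, Tmem47 and Pdcl3, with correlations from 0.985 to 0.998. These arrays share 3 groups and 3 replicate numbers, and 145 genes exceeded 0.9. The sizes differed: Fam126b had a log2 difference of 2.88 between cytochalasin D and control and Pdcl3, a chaperone-associated protein, one of 0.77. Traf5, a signalling adaptor of tumour necrosis factor receptors, had means of 86.4 ± 10.3 in the control cultures, 360 ± 51.0 with cytochalasin D and 190 ± 42.5 in the double-drug group (SD, n = 3). Dnajb4, a co-chaperone of Hsp70, had 1976 ± 164, 4822 ± 511 and 3226 ± 343 (SD, n = 3). The list depended on the probe set and the measure: 1 of the 10 was also among the 10 most like Errfi1 probe set 2 (Lima1, an actin-binding LIM protein), and 1 of the 10 was kept with Spearman correlation. Among the members, Erbb2 had a correlation of −0.76 with Errfi1 probe set 1 and Lrig1 probe set 1 one of −0.55, whereas the 4 Egfr probe sets lay between −0.04 and 0.21.

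**Figure D5:**
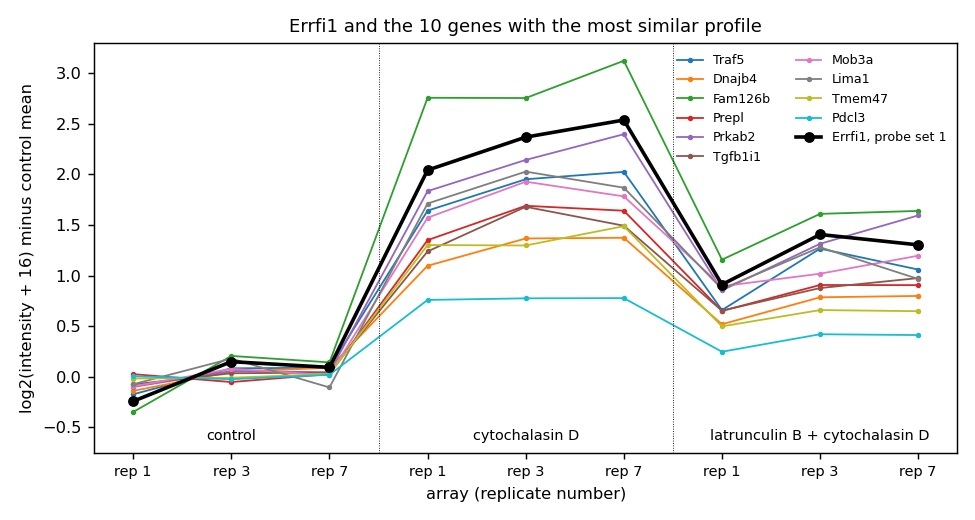
Log2(intensity + 16) minus the control mean (y axis) for Errfi1 probe set 1 (black) and the 10 genes with the most similar profile (colours) on the 9 arrays (x axis); lines join arrays to guide the eye and imply no order. All 11 profiles are highest with cytochalasin D and intermediate in the double-drug group. This order follows from picking the 10 genes by their likeness to Errfi1 on these same arrays. The sizes of the profiles differ from 0.77 for Pdcl3 to 2.88 for Fam126b.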

How the data were processed

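The deposited intensity values, 1 per probe set and array, were normalized by the authors; per the submitters' processing notes MAS5 and GCRMA were used, without versions or roles. Their linear scale was read from the values. Raw scanner values were not used here. Symbols came from the platform annotation, updated by gene identifier with a RefSeq table of GRCm38.p6 used for names. All 9 arrays and 27010 probe sets (64 control probe sets left out) entered 1 linear model on log2(intensity + 16) with limma 3.58.1 under R 4.3.3 (lmFit and eBayes, a coefficient for each group). Tests were two-sided, Benjamini-Hochberg adjusted over all probe sets tested, and called at 0.05; intervals of 95% are not adjusted. The fit was tested on simulated data. The number of arrays limits precision. Each p-value sets a group difference against the spread between these cultures, moderated over all probe sets tested. Without the replicate block that spread includes differences between replicate numbers.

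The members, lists and tests were chosen with earlier results of these data known. Named genes were all members, the called genes of each list (otherwise the 4 with the smallest adjusted p, ties by unadjusted p), and the 10 genes most like Errfi1. Pairing was checked by correlating deviations from group means between same-numbered cultures. These correlations ran from 0.41 to 0.83 for the double-drug group against control and from 0.41 to 0.76 between the drug groups, which were taken as paired. Of the 28 proximal signalling and 15 ligand genes, 23 and 14 had a named probe set here.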

Additional observations from a re-analysis of the deposited data

How the results depend on the processing

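The rise of Errfi1 probe set 1 with cytochalasin D was called under all 19 alternatives (added constant of 1 or 64, no filter or a 60th percentile filter, quantile normalization, trended prior, only the 6 arrays compared, replicate block, each array left out, and the 3 cultures numbered 1 left out, the last chosen after seeing the data), with log2 differences from 2.19 to 2.45, and the count of called members stayed at 2. Cytochalasin D against control was not taken as paired, because the correlations of same-numbered cultures ran from 0.08 to 0.71. Even so, 5 of its 6 arrays correlated best with their own number, so pairing is not settled and calls of both fits are given. The block moved the calls over the whole array from 423 to 1044 and those of the members from 2 to 2. Of the pathway lists, the block called 1 proximal signalling gene (Sos2, adjusted p = 0.0278), 4 brakes in place of 1 (Socs5 with Spry1, Socs3 and Tnk2, at 0.0211, 0.0127 and 0.0311) and 3 ligand and shedding genes in place of 1 (Ereg with Hbegf and Rhbdf1, at 0.00796 and 0.0194). In the double-drug group against control, the count of called members was 1. It was 0 with log2(intensity + 64), without the filter, in the 6 arrays compared, without the cultures numbered 1 and in all leave-one-out fits (0 to 0), and 2 with the 60th percentile filter or with the replicate block as a factor or random effect. For cytochalasin D against the double-drug group it was also 1. It was 0 without the filter, in the 6 arrays and without the cultures numbered 1, 2 with the 60th percentile filter and both block fits, and 0 to 1 with single arrays left out. The difference of Errfi1 probe set 1 passed with the 60th percentile filter and with the block as a factor or random effect, at 1.21 for the double-drug group against control (adjusted p = 0.035, 0.0106 and 0.0159) and 1.11 between the drug groups (0.045, 0.0175 and 0.0167). It ranged from 1.09 to 1.35 and from 0.96 to 1.25 with single arrays left out, and none of these passed (adjusted p up to 0.419 and 0.435). The filters change the number of probe sets adjusted over; the cause of the other changes was not tested. Of 684 alternative values of the other members 0 were called (limma, smallest adjusted p = 0.0764) and 38 changed sign, none of them called. The filters, the trended prior, the block fits, the 6-array fit and leaving out an array of the uncompared group do not alter a difference. Only the other settings could change a sign. Of the 10 genes most like Errfi1, 9 were kept with log2(intensity + 1) or quantile normalization, 10 with log2(intensity + 64) and 1 with Spearman correlation. With no depth or detection calls in the values, dim probe sets near 5 are not told from background.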
